A study of Myotis pilosus with 4 samples.

Results

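The microRNAs (miRNAs) miR-1-3p, miR-133-3p and miR-206-3p, often called the muscle miRNAs, were followed in the small RNA of brain and white adipose tissue (WAT) of a bat, *Myotis ricketti* (Myotis pilosus in the sample labels). They were found by their mature sequences, as listed for this bat, and are 3 of 119 conserved miRNAs of a list that also holds 77 bat-specific ones. Each of the 3 was present as the identical tag, a distinct sequence with its read count, in 4 of 4 libraries. The libraries were hibernating brain (HB), active brain (AB), hibernating WAT (HA) and active WAT (AA), 1 library each. All bats were wild adults, and each library was made from whole brain or intra-abdominal fat RNA that was mixed from 3 bats. The brain and WAT pools of a state came from the same 3 bats. The active bats, whose state the labels call aroused, had a body temperature of about 36 °C and were caught in October. The hibernating bats had one of about 9 °C and were caught in March, so that state and season cannot be told apart. With 1 pool per group no group had a replicate, no test was run, and every interval given is a 95% interval that covers counting error only.

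miRNAs are short RNAs that guide the Argonaute proteins to messenger RNAs, mainly by pairing of the seed, bases 2 to 8 from the 5′ end. miR-1 and miR-133 are cut from shared primary transcripts and act in skeletal and heart muscle, where miR-1 favours differentiation and miR-133 favours proliferation of muscle precursors. miR-206 is a relative of miR-1 with the same seed, is made mainly in skeletal muscle, and arises from a transcript that also carries the b form of miR-133. None of the 3 is a classical miRNA of neurons or fat cells. In bulk tissue, fewer cells of a type and less RNA per cell cannot be told apart.

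The mature sequences show how close miR-1-3p and miR-206-3p are, and why the seed alone cannot separate them. Each is 22 nt long, and the seed is in capitals.
miR-1-3p: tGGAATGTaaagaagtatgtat
miR-206-3p: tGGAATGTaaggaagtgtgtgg
miR-133-3p: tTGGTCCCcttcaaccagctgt
miR-1-3p and miR-206-3p share their seed and 18 of 22 bases. Counted from the 5′ end with the base of miR-1-3p first, they differ by A11G, A17G, A21G and T22G. None of the other 193 listed miRNAs has either of these seeds.

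The 4 libraries held between 10007650 and 12159756 clean reads, and the listed miRNAs took between 13.2% and 24.0% of them, with the lowest share in HA. The tissue labels were checked against marker miRNAs. The 5 neuronal markers, led by miR-124a-3p in brain, summed to 40374 (HB) and 52933 (AB) reads per 1000000 clean reads (RPM) in brain and to 130 (HA) and 211 (AA) in WAT, where miR-153-3p was at 0. Most of the WAT sums was miR-129-3p, at 95.6 (HA) and 180 (AA) RPM, against 2800 (HB) and 1435 (AB) in brain. The oligodendrocyte marker miR-219-5p had 1663 and 894 reads in HB and AB, and 0 and 6 reads in HA and AA. No marker of fat cells was among the lists, so the WAT label was checked only by the lower levels of neural markers. miR-208 and miR-499, the other miRNAs typical of striated muscle, were not analysed here.

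miR-1-3p was the most abundant of the 3 in every library and was among the leading miRNAs of WAT. It had 21968 reads (HB), 14019 (AB), 196202 (HA) and 202291 (AA). As RPM these were 1807 (95% interval 1783 to 1831), 1401 (1378 to 1424), 16998 (16924 to 17073) and 17687 (17611 to 17764). Both WAT libraries were therefore far above both brain libraries. By reads it ranked 3 among all listed miRNAs in HA and 6 in AA, against 13 in HB and 14 in AB. It made up 12.9% of all listed miRNA reads in HA and 8.45% in AA, against 0.863% in HB and 0.583% in AB. These ranks and shares are those of identical tags. By the first 18 nt the shares were 5.67% (HA), 3.87% (AA), 0.373% (HB) and 0.259% (AB), lower in every library. The total for that choice counts tags shared by listed miRNAs more than once.

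miR-206-3p, the skeletal muscle relative of miR-1, showed the same order of tissues with a smaller distance. It had 1711 reads (HB), 2031 (AB), 4662 (HA) and 6139 (AA). As RPM these were 141 (134 to 148), 203 (194 to 212), 404 (392 to 416) and 537 (523 to 550). The WAT libraries again stood above the brain libraries, and on this scale the active library of each tissue stood above the hibernating one. Its rank was 17 in both WAT libraries, 26 in HB and 28 in AB.

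miR-133-3p, which is made together with miR-1 in muscle, was rare. Its identical tag had 4 reads (HB), 9 (AB), 84 (HA) and 331 (AA). As RPM this was 0.329 (0.0896 to 0.842), 0.899 (0.411 to 1.71), 7.28 (5.80 to 9.01) and 28.9 (25.9 to 32.2). The 2 brain values overlapped within counting error, and the 2 WAT values did not.

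**Figure D1:**
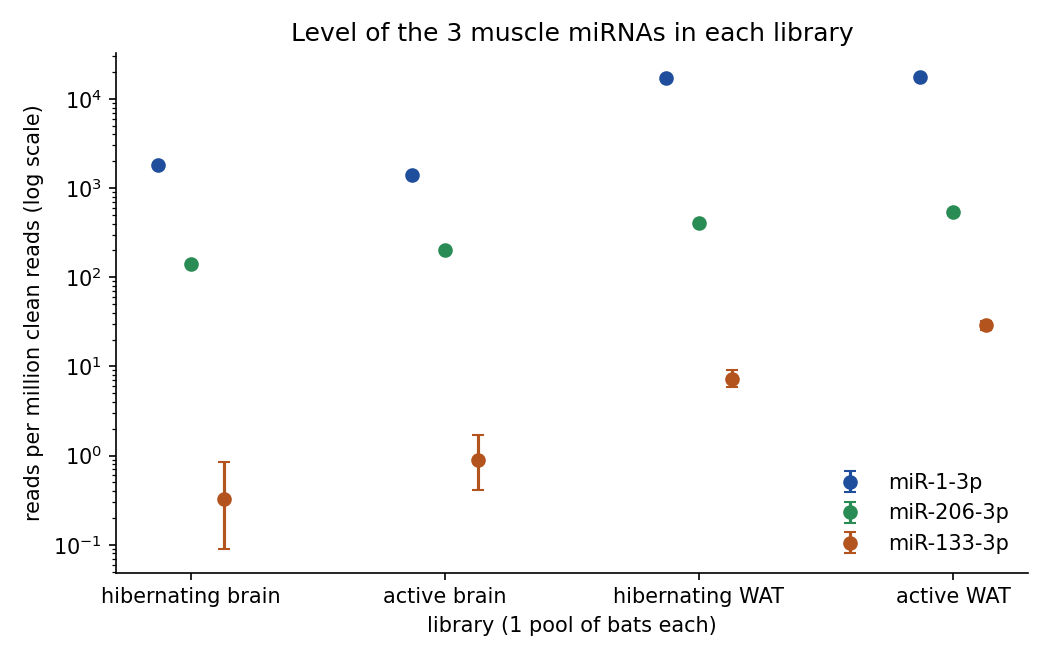
Level in RPM (reads per 1000000 clean reads), on a log scale, of the exact tag of miR-1-3p, miR-206-3p and miR-133-3p in the 4 libraries, each 1 pool of bats. Points are single libraries and bars are 95% intervals for counting error. miR-1-3p lies at 16998 and 17687 in the WAT libraries and at 1807 and 1401 in the brain libraries, and the exact tag of miR-133-3p lies below 1 in both brain libraries.

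For comparisons between libraries, reads were scaled by the trimmed mean of M values (TMM) of edgeR over the listed miRNAs of the pair, and the log2 ratio of each member was taken. Between tissues, all 3 members were higher in WAT by a log2 ratio of at least 1 in both states. In the active state (AA over AB) the ratio was 3.75 (3.73 to 3.78) for miR-1-3p, 1.496 (1.42 to 1.57) for miR-206-3p and 5.10 (4.16 to 6.24) for miR-133-3p. In the hibernating state (HA over HB) it was 3.33 (3.31 to 3.35), 1.62 (1.54 to 1.70) and 4.56 (3.15 to 6.47). As a background, 36.5% of the 159 listed miRNAs with at least 10 reads over AA and AB, and 35.2% of the 159 over HA and HB, were as much higher in WAT. The 3 members stayed above a ratio of 1 under all 8 alternatives of scaling and tag choice. The range over them was 3.07 to 3.90 for miR-1-3p, 1.31 to 2.20 for miR-206-3p and 2.41 to 5.21 for miR-133-3p, over both states.

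Of the marker lists of other cell types, those of blood and mesenchymal cells were higher in WAT than in brain in both states, as the members were. The epithelial sum was higher in WAT only in the hibernating state. The 3 blood markers (miR-142-5p, miR-142-3p and miR-486-5p) each had a read in every library and summed to 23.6 (HB) and 38.6 (AB) RPM in brain, and to 240 (HA) and 236 (AA) in WAT. The 2 mesenchymal markers (miR-199-3p and miR-145-3p) summed to 526 and 802 in HB and AB, and to 13548 and 40114 in HA and AA. The 2 epithelial markers summed to 10.2 (HB), 30.3 (AB), 25.9 (HA) and 2.45 (AA), with miR-200a-3p at 0 in AA, so that AB exceeded both WAT libraries. Between the brain states, the blood and mesenchymal sums were lower in HB, where miR-1-3p was higher, but single markers differed. miR-486-5p (12.3 RPM in HB and 32.6 in AB) and miR-199-3p (524 and 802) were lower in HB. miR-142-5p (11.2 and 5.90), miR-145-3p (1.81 and 0.699) and miR-142-3p (0.164 and 0.0999, from 2 and 1 reads) were higher there. The part of these cell types in the levels of the 3 miRNAs was not tested.

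Between states, no member had the same clear change in both tissues. For miR-1-3p the log2 ratio of hibernating to active was 0.66 (0.63 to 0.69) in brain, and it was positive under all 8 alternatives, at 0.37 to 0.79. In WAT it was 0.29 (0.28 to 0.30), with a range of -0.057 to 1.07, so that its size and sign depended on the scaling. The TMM scaling of this pair left the median of all listed miRNAs at -0.29, and that of HA over HB at -0.20, so that miR-1-3p lay above the median of its pair in WAT. For miR-206-3p the ratio was -0.24 (-0.33 to -0.14) in brain, negative under all 8 alternatives. In WAT it was -0.061 (-0.12 to -0.0057), and 7 of 8 alternatives, 1 of them a repeat, gave a positive value, of up to 0.72, so that no direction is given.

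With this scaling, miR-133-3p was the only one of the 3 whose absolute log2 ratio between states reached 1. In WAT it was -1.64 (-2.01 to -1.29), from 84 (HA) and 331 (AA) reads. It was negative under all 8 alternatives, but TMM over the conserved miRNAs alone gave -0.86, and 1.07 for miR-1-3p. In brain it was -1.16 (-3.31 to 0.68), from 4 and 9 reads, so that this depth could not show a difference. As a background, 49.3% of 142 listed miRNAs in WAT and 40.5% of 153 in brain reached an absolute log2 ratio of 1, in either direction, so that 1 of 3 members in each tissue is no more than the share of all.

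Of the other miRNAs known from muscle, miR-378-3p, which is also typical of fat and of oxidative tissue, had 1459 reads (HB), 4624 (AB), 11775 (HA) and 180178 (AA). Its log2 ratio of hibernating to active was -1.66 (-1.74 to -1.57) in brain and -3.60 (-3.63 to -3.57) in WAT. miR-486-5p, which is abundant in red blood cells as well as muscle, had 149, 326, 1795 and 1763 reads, with -1.12 (-1.41 to -0.84) in brain and 0.36 (0.27 to 0.46) in WAT. miR-486-3p, from the other arm of its hairpin, had 55, 238, 151 and 365 reads, with -2.10 (-2.55 to -1.68) in brain and -0.94 (-1.22 to -0.66) in WAT. In brain all 3 had the opposite sign to miR-1-3p, and in WAT miR-378-3p had by far the lowest ratio of them.

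Ratios between the members within a library need no scaling. The reads of miR-1-3p per read of miR-206-3p were 12.8 (12.2 to 13.5) in HB, 6.90 (6.59 to 7.23) in AB, 42.1 (40.9 to 43.3) in HA and 33.0 (32.1 to 33.8) in AA. No interval overlapped another, and WAT held more miR-1-3p per miR-206-3p than brain in both states. The ratio was 4.77 times as high (4.53 to 5.04) in AA as in AB, and 3.28 times (3.09 to 3.47) in HA as in HB. It was 1.86 times as high (1.74 to 1.99) in HB as in AB.

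Between the WAT states the ratio of miR-1-3p to miR-206-3p was 1.28 times as high (1.23 to 1.33) in HA as in AA with identical tags. The fold was smaller with wider choices of tags, at 1.12 (1.09 to 1.16) with tags of 1 substitution added, and at 1.07 (1.05 to 1.10) with every tag of the same first 18 nt or of the same bases 2 to 17. Its interval reached 1 only when a group of miR-1-like tags described below was left out of the first-18-nt tags, which gave 19.8 in HA and 19.5 in AA, a fold of 1.01 (0.986 to 1.04). Under the same choice the fold between the brain states was 1.59 (1.52 to 1.68).

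miR-1-3p exceeded miR-133-3p by far in every library. The reads of miR-1-3p per identical tag of miR-133-3p were 5492 (2145 to 20158) in HB, 1558 (820 to 3407) in AB, 2336 (1887 to 2928) in HA and 611 (549 to 683) in AA. In WAT the ratio was 3.82 times as high (2.999 to 4.92) in HA as in AA. The reads of miR-206-3p per read of miR-133-3p were 428 (167 to 1572) in HB, 226 (119 to 494) in AB, 55.5 (44.7 to 69.7) in HA and 18.5 (16.6 to 20.8) in AA. Since miR-1 and miR-133 share their transcripts, these figures are set beside the start forms of miR-133-3p further on. Counting all tags with bases 2 to 17 lowers them in every library.

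**Figure D2:**
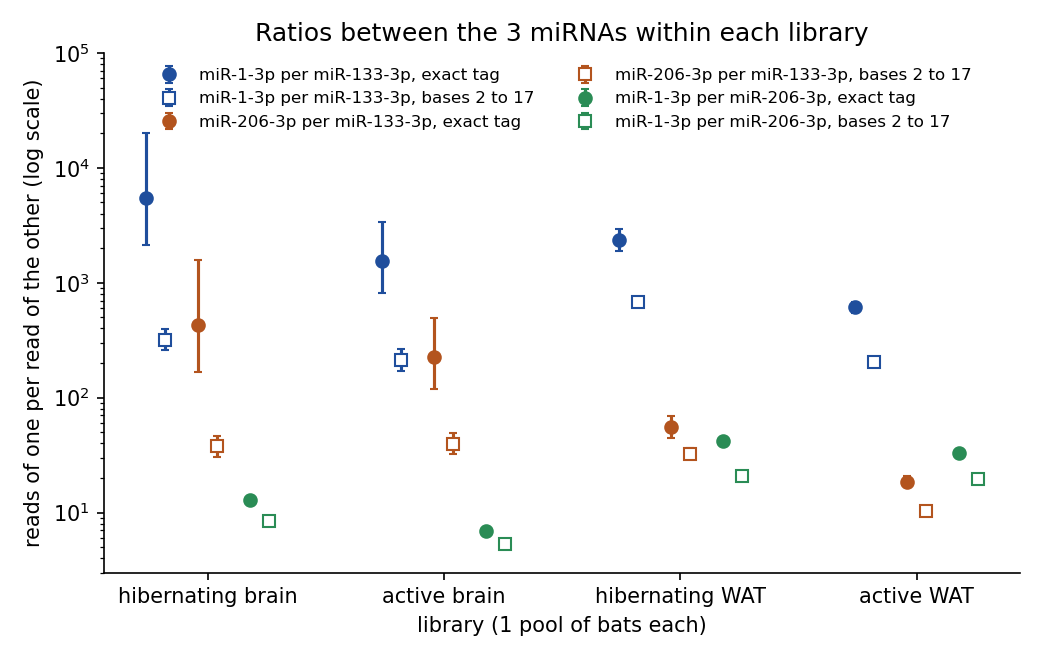
Reads of one member per read of another within each library on a log scale, with 95% intervals for counting error. Filled circles count identical tags and open squares count all tags with bases 2 to 17 of the listed sequence. The open squares for ratios to miR-133-3p lie far below the filled circles in brain, at 319 against 5492 for miR-1-3p in HB, and lie lower in WAT too, at 684 against 2336 in HA.

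Tags of miR-1-3p and miR-206-3p with a G in place of an A were common in both brain libraries and rare in both WAT libraries. These tags had the listed length and 1 changed base, and their share is given of the changed and the listed tag together. They are shown with the changed base in capitals because each leaves the seed as listed and falls in the later part of the miRNA.
miR-1-3p A14G: tggaatgtaaagaGgtatgtat
miR-1-3p A10G: tggaatgtaGagaagtatgtat
miR-1-3p A11G: tggaatgtaaGgaagtatgtat
miR-1-3p A17G: tggaatgtaaagaagtGtgtat
miR-206-3p A10G: tggaatgtaGggaagtgtgtgg
The A14G tag of miR-1-3p had 2430 reads (HB), 1619 (AB), 198 (HA) and 185 (AA). Its share was 9.96% (9.59 to 10.3) in HB, 10.4% (9.88 to 10.8) in AB, 0.101% (0.0873 to 0.116) in HA and 0.0914% (0.0787 to 0.106) in AA. The 2 brain libraries overlapped within counting error, as did the 2 WAT libraries, and the tissues lay far apart although WAT held many more reads of the listed tag.

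The other A-to-G tags of miR-1-3p shown above followed the same order of tissues. A10G took 3.59% (3.36 to 3.84) in HB, 2.94% (2.67 to 3.22) in AB, 0.0850% in HA and 0.0667% in AA. A11G took 2.26%, 2.19%, 0.183% and 0.139%, and A17G took 0.759%, 0.764%, 0.0504% and 0.0563%. Of these, only A10G differed between the brain states beyond counting error, with the higher share in HB. Not every A followed this order. A13G took 0.118% (HB), 0.0499% (AB), 0.0616% (HA) and 0.0835% (AA), so that AB was not above either WAT library. The bases of A11G and A17G are those that miR-206-3p has at the same positions, but these tags keep the end of miR-1-3p.

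In miR-206-3p the leading change was at base 10. A10G had 192 reads (HB), 201 (AB), 8 (HA) and 10 (AA), or 10.1% (8.77 to 11.5), 9.01% (7.85 to 10.3), 0.171% (0.0740 to 0.337) and 0.163% (0.0780 to 0.299). A14G, the leading change of miR-1-3p, took only 0.175% and 0.197% of miR-206-3p in HB and AB. The 2 relatives thus shared the kind of change and the tissue, with a different leading position.

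Over bases 2 to 18, A-to-G tags were 83.3% of all singly changed reads of miR-1-3p in HB and 86.6% in AB, against 23.2% in HA and 22.8% in AA. For miR-206-3p they were 74.5% and 79.1%, against 19.4% and 19.9%. No single change of another kind in these bases reached more than 0.639% of either miRNA in any library. A-to-C at base 14 of miR-1-3p, for example, took 0.354%, 0.185%, 0.392% and 0.321% in HB, AB, HA and AA. Tags of miR-1-3p with 2 such A-to-G changes had 646 reads (HB), 457 (AB), 73 (HA) and 79 (AA). With tags of any length, A14G took 8.78%, 9.29%, 0.0961% and 0.0950% of miR-1-3p, and A10G took 9.50%, 9.20%, 0.208% and 0.149% of miR-206-3p.

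As a background, the same count was made for the 19 listed miRNAs with at least 1000 reads in every library, from base 2 to the fifth base from the 3′ end. Of 93 possible A-to-G changes, 8 took 1% or more in both brain libraries and 1 did so in both WAT libraries. Of 853 other changes, 6 did so in brain and 6 in WAT. The 8 in brain were in 5 miRNAs and included the 3 leading changes of miR-1-3p and A10G of miR-206-3p. The remaining 4 were A3G of miR-151-3p, A6G and A16G of miR-378-3p and A17G of miR-7b-5p. A17G of miR-7b-5p was higher in WAT than in brain within each state, at 18.9% (HA) and 36.5% (AA) against 10.5% (HB) and 21.2% (AB). A16G of miR-378-3p took 28.5%, 16.9%, 5.49% and 0.808% in HB, AB, HA and AA. A3G of miR-151-3p and A6G of miR-378-3p stayed below 1% in both WAT libraries. Enzymes of the ADAR family, which are active in brain, convert adenosine in double-stranded RNA to inosine, which sequencing reads as G. The source of the tags counted here was not tested. The tags with a change in the first 18 nt or in bases 2 to 17 are left out of the counts given above, except in the alternative that adds tags with 1 substitution. That alternative brought the log2 ratio of miR-1-3p to 3.51 for AA over AB and 3.07 for HA over HB.

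**Figure D3:**
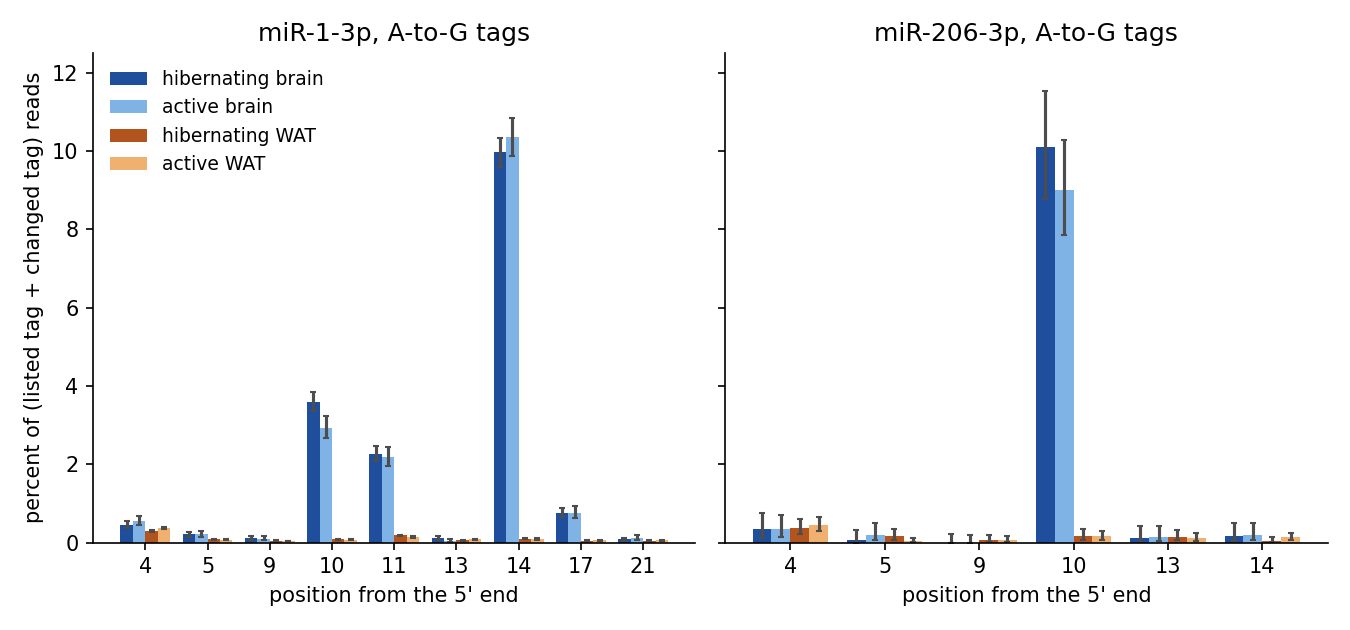
Share of A-to-G tags at each A of miR-1-3p and miR-206-3p in the 4 libraries, as percent of the reads of the changed and the listed tag, with 95% intervals for counting error. In both brain libraries base 14 of miR-1-3p and base 10 of miR-206-3p reach about 10%, and in both WAT libraries every position stays below 0.5%.

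At the 3′ end, miR-1-3p was the most uniform of the 3. Among reads identical to the listed sequence as far as it goes, the share of the listed length was 77.4% (76.9 to 77.9) in HB, 79.6% (79.0 to 80.2) in AB, 86.9% (86.7 to 87.0) in HA and 85.5% (85.3 to 85.6) in AA. Shortened tags took 21.2% and 19.3% in brain and 10.1% and 12.7% in WAT. The difference between tissues was mainly in the tag of 20 nt, which took 11.7% in HB and 8.92% in AB, against 3.61% in HA and 4.79% in AA. Lengthened tags were few, at 1.41%, 1.07%, 3.06% and 1.79%.

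miR-206-3p had more varied 3′ ends. The listed length took 55.7% (53.9 to 57.5) in HB, 64.6% (62.9 to 66.3) in AB, 50.3% (49.3 to 51.3) in HA and 57.4% (56.5 to 58.4) in AA, so that in each tissue the hibernating library had the lower share. Departing tags, outside these shares, were 12.4% (HB), 8.77% (AB), 25.7% (HA) and 20.5% (AA) of the reads with the first 18 nt. Lengthened tags took 5.27% (4.51 to 6.12) and 3.44% (2.83 to 4.14) in HB and AB, and 19.9% (19.1 to 20.7) and 10.7% (10.1 to 11.3) in HA and AA. In each tissue the hibernating library had more of them, and WAT had more than brain. With 1 mismatch allowed after base 16 the lengthened shares were 5.53%, 3.56%, 18.0% and 9.84%, in the same order.

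The base added to miR-206-3p also differed by tissue. Among tags with exactly 1 added base, T was 66.7% (63.4 to 69.9) of 847 reads in HA and 59.3% (55.7 to 62.9) of 745 in AA. It was 31.5% (22.2 to 42.0) of 92 reads in HB and 28.2% (19 to 39.04) of 85 in AB, where A was the leading base. In miR-1-3p, A was the leading added base in every library, at 53.2% to 63.2%. Addition of A or U to the 3′ end by terminal nucleotidyl transferases is a known step of miRNA turnover, and bases added by the genome sequence next to the miRNA could not be set apart here, since no genome was used.

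**Figure D4:**
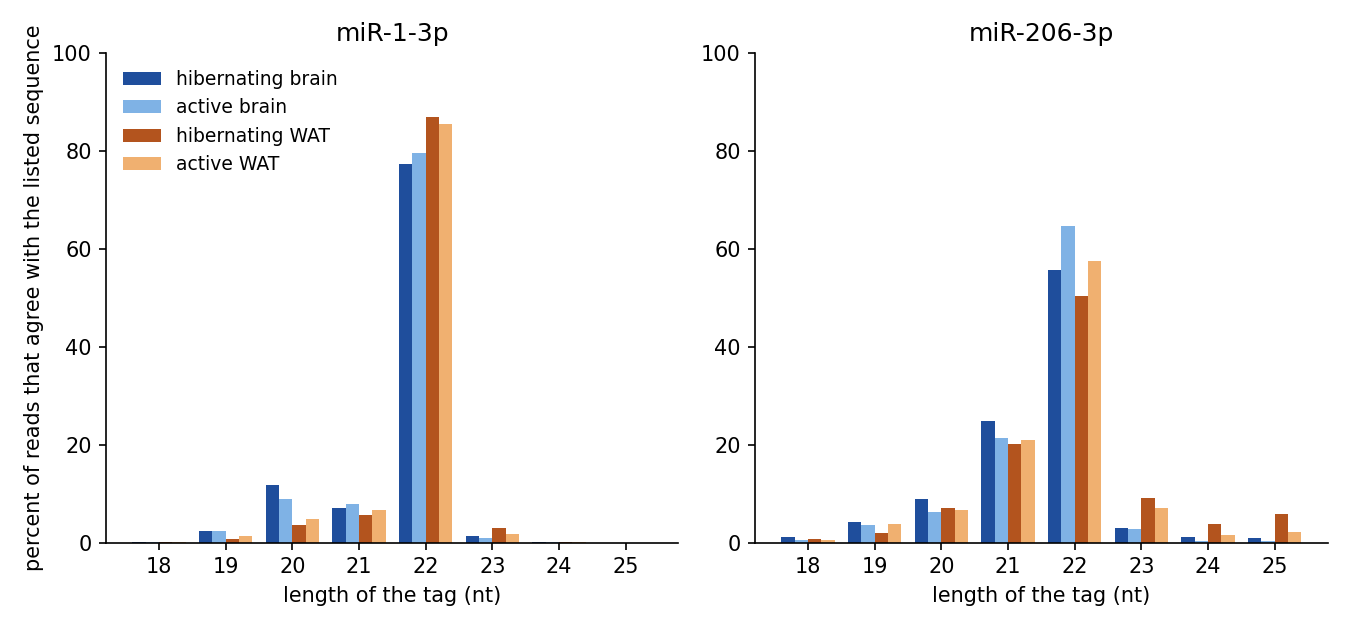
Length of the tags of miR-1-3p and miR-206-3p that match the listed sequence, as percent of such reads in each library, from 18 to 25 nt. miR-1-3p peaks at 22 nt with 77.4% to 86.9%, and miR-206-3p has 50.3% to 64.6% at 22 nt and tags of 23 to 25 nt that are highest in HA.

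The last base itself varied in tags of 22 nt. These tags are shown because in WAT they are among the most abundant forms, with the seed in capitals and the change counted from the 5′ end.
miR-1-3p with T22C: tGGAATGTaaagaagtatgtac
miR-1-3p with T22A: tGGAATGTaaagaagtatgtaa
miR-206-3p with G22T: tGGAATGTaaggaagtgtgtgt
miR-206-3p with G22A: tGGAATGTaaggaagtgtgtga
For miR-1-3p the listed T was at base 22 in 94.6% (HB), 95.5% (AB), 91.2% (HA) and 89.2% (AA) of reads. T22C took 1.499% (1.35 to 1.66), 1.66% (1.46 to 1.88), 4.30% (4.22 to 4.39) and 6.94% (6.84 to 7.05), and T22A took 3.80% (3.55 to 4.05), 2.74% (2.48 to 3.02), 4.43% (4.35 to 4.52) and 3.80% (3.72 to 3.88). Within each state both forms were more frequent in WAT than in brain beyond counting error, with a wider gap for the C form. The T22A shares of HB and AA overlapped, and no T22C share of brain overlapped one of WAT. For miR-206-3p the listed G was at base 22 in 83.9% (HB), 89.3% (AB), 65.0% (HA) and 72.4% (AA) of reads. G22T took 6.76% (5.71 to 7.94), 4.18% (3.39 to 5.08), 17.4% (16.6 to 18.3) and 14.1% (13.4 to 14.9). G22A took 9.26% (8.04 to 10.6), 6.55% (5.57 to 7.65), 17.2% (16.3 to 18.1) and 12.8% (12.1 to 13.5). Both forms were more frequent in WAT than in brain, and in the hibernating than in the active library of each tissue, beyond counting error.

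At the 5′ end, which sets the seed, miR-1-3p and miR-206-3p were nearly invariant. Of tags with bases 2 to 17, the listed first base began 98.5% to 98.9% of the reads of miR-1-3p and 98.3% to 98.9% of those of miR-206-3p over the 4 libraries. miR-133-3p differed from both. Its tags are shown because a start 1 base earlier than the listed one moves the seed, in capitals, by 1 base. The listed start is that of the sequence given for this bat, and which start is the usual one was not tested.
miR-133-3p, listed start: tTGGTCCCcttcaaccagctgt
miR-133-3p, 1 base earlier, 23 nt: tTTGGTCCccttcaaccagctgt
miR-133-3p, 1 base earlier, 21 nt: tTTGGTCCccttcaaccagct
Of all tags with bases 2 to 17 of miR-133-3p there were 95 reads (HB), 89 (AB), 392 (HA) and 1321 (AA). Those with the earlier start were 72.6% (62.5 to 81.3) in HB, 75.3% (65.0 to 83.8) in AB, 34.2% (29.5 to 39.1) in HA and 38.8% (36.2 to 41.5) in AA. The listed start took 20%, 23.6%, 58.7% and 54.8%. In both states, the earlier start was thus the larger share in brain and the smaller one in WAT, with intervals that did not overlap between tissues and did between states.

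The 2 tissues also differed in where the earlier-starting tags ended. The tag of 21 nt had 36 reads (HB), 39 (AB), 36 (HA) and 126 (AA), and the tag of 23 nt had 1, 6, 47 and 203. The brain libraries held mostly the shorter and the WAT libraries more of the longer one. At base 21 of the listed sequence, where the a and b forms of miR-133 differ between G and A in other mammals, the 31 (HB), 33 (AB), 268 (HA) and 953 (AA) reads had G in 87.1%, 93.9%, 95.9% and 98.6%. The earlier-starting tag of 21 nt ends before this base. These figures thus cover only 31 of 95 reads in HB and 33 of 89 in AB, and leave the form of the others open.

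**Figure D5:**
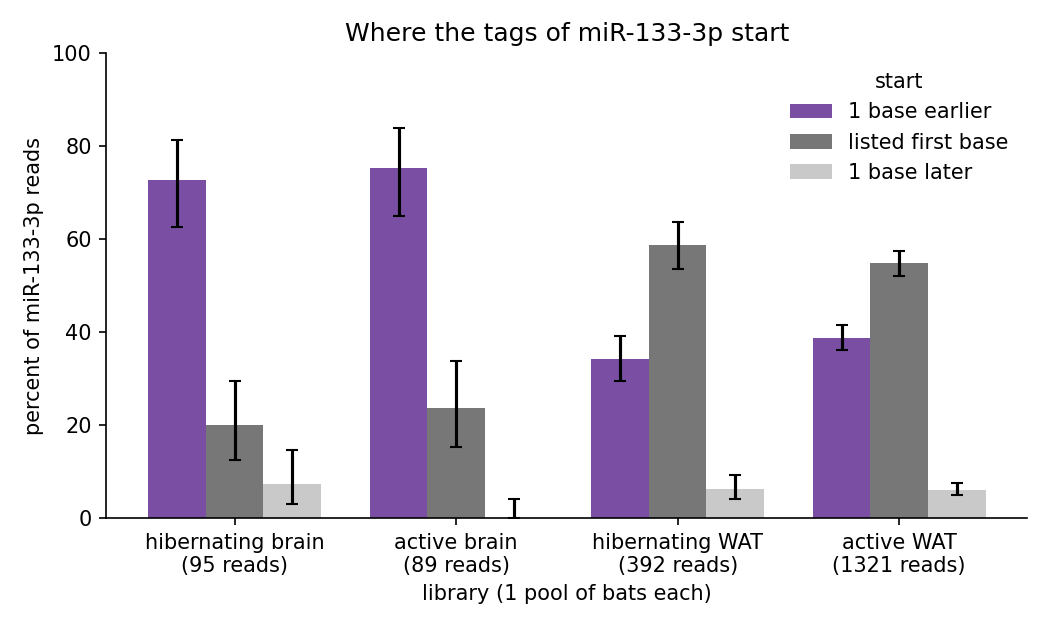
Start of the tags of miR-133-3p that hold bases 2 to 17 of the listed sequence, as percent of such reads in each library, with 95% intervals for counting error. The start 1 base earlier takes 72.6% and 75.3% in brain and 34.2% and 38.8% in WAT.

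Wider choices of tags changed the results for miR-133-3p. Tags with the listed start and the first 18 nt, whatever their 3′ end, moved its log2 ratio of hibernating to active in brain from -1.16 to -0.41, and its ratio of WAT to brain to 5.04 in the active and 3.77 in the hibernating state. With all tags that hold bases 2 to 17, which admits other starts as well, its log2 ratio of hibernating to active in brain was -0.081 in place of -1.16, and its ratio of WAT to brain was 3.82 in the active and 2.41 in the hibernating state in place of 5.10 and 4.56. The reads of miR-1-3p per read of miR-133-3p became 319 (261 to 395) in HB, 211 (172 to 263) in AB, 684 (619 to 757) in HA and 203 (192 to 215) in AA. The highest value was then in HA and no longer in HB. In WAT the fold between states stayed at 3.36 (3.004 to 3.78), higher in HA.

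A group of tags in HA shared the first 19 bases of miR-1-3p and departed from it at base 20. They had 16555 reads in HA, 1274 in AA, 162 in HB and 121 in AB. They were 6.29% of the reads that began with the first 18 nt of miR-1-3p in HA and between 0.483% and 0.655% in the other 3 libraries, and 3 of 51 tags held 94.7% of them in HA. They enter the counts by the first 18 nt and by bases 2 to 17 but not those of identical tags. Whether they came from the bat was not tested, so that the counts of miR-1-3p by those 2 choices, above all in HA, may include RNA of another organism.

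The listed miRNAs whose profile over the 4 libraries was nearest to each member were found among the 96 with at least 10 reads in every library (miR-133-3p itself had fewer). The measure was the root mean square distance between log2 levels (RPM), centred on the mean of each miRNA. For miR-1-3p the nearest were miR-503-5p at 0.166, miR-142-5p, a miRNA of blood cells, at 0.214 and miR-22-3p at 0.463. For miR-206-3p they were miR-30b-3p at 0.165, miR-30c-3p at 0.179 and miR-24-3p at 0.363. For miR-133-3p they were miR-199-3p at 0.395, miR-199-5p at 0.419, both typical of mesenchymal cells, and a bat-specific miRNA at 0.518. The brain part of the miR-133-3p profile rests on 4 (HB) and 9 (AB) reads of the identical tag, without tags of other starts. No miRNA was nearest to more than 1 of the 3 members. With 4 libraries as points this is a description of their profiles only.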

How the data were processed

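Small RNA from 4 pooled samples was sequenced on the Illumina/Solexa platform. The authors cut out small RNA on a gel, trimmed adapters, dropped poor reads and those shorter than 18 nt, and deposited each distinct tag with its raw count, which was used here as the unit. Mature sequences were taken from the miRNA list that accompanies the study, and none of its values were used. A miRNA was counted as the tag identical to its sequence. Alternatives were tags with the first 18 nt, tags with bases 2 to 17 and, chosen after seeing the data, tags with 1 substitution and first-18-nt tags without those departing at base 20 of miR-1-3p. Ratios were scaled by TMM (edgeR 4.0.16, R 4.3.3), or by clean reads, listed reads or median of ratios (DESeq2 1.42.0). No count model was fitted. Intervals were exact (Clopper-Pearson or Fisher, SciPy 1.17.1 and R), and reads without molecular identifiers make them cover counting error only. A floor of 3 reads applied to a library at 0. Named miRNAs were the members, known muscle miRNAs, marker lists, the 3 nearest profiles and the 5 leading tags of each member. The single-substitution tags were looked at after their values were seen. The members and lists were chosen with earlier results of these data known. The TMM ratio was tried on simulated counts with as many miRNAs raised as lowered. The intervals were checked there with known library sizes, so that this does not cover pairs with unbalanced changes.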

Additional observations from a re-analysis of the deposited data

Results flagged for a closer look

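The tags that shared 19 bases with miR-1-3p and departed at base 20 had 16555 reads in HA, against 1274 in the active library of the same tissue, and belong to no listed miRNA. Whether they came from the bat was not tested. The A-to-G tags, which the counts of identical tags leave out, were more frequent in brain than in WAT, with 2430 (HB) and 1619 (AB) reads for A14G of miR-1-3p and 192 (HB) and 201 (AB) for A10G of miR-206-3p. In WAT the first had 198 and 185 reads and the second 8 and 10, in HA and AA. With 1 library per group, a brain library that stands apart from other brain samples could not be recognised.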

How the results depend on the processing

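Brain and WAT of a state came from the same bats, but no paired analysis was possible because each group had 1 library. Of the 96 alternative log2 ratios of the members, 39 lay within the counting interval of the reported value and 57 outside it, and none with a size of 1 or more changed sign. For miR-206-3p and miR-133-3p these counts include the first-18-nt choice again, as the choice without tags departing at base 20. The depth limits miR-133-3p in brain, with 4 and 9 identical tags. Log2 ratios are given in the order HB over AB, HA over AA, AA over AB and HA over HB, and only those outside the interval are given.
Scaling by clean reads gave 0.37, -0.057, 3.66 and 3.23 for miR-1-3p and -0.53, -0.41, 1.40 and 1.52 for miR-206-3p. Scaling by listed reads gave 0.56, 0.61, 3.86 and 3.90 for miR-1-3p and, from HA over AA on, 0.26, 1.60 and 2.19 for miR-206-3p. The median of ratios gave, from HA over AA on, 0.54, 3.57 and 3.17 for miR-1-3p and 0.19, 1.31 and 1.46 for miR-206-3p. TMM within the conserved miRNAs gave 0.79, 1.07, 3.84 and 3.23 for miR-1-3p, -0.11, 0.72, 1.58 and 1.52 for miR-206-3p and -0.86 for miR-133-3p in WAT.
Tags with the first 18 nt gave 0.43 and 0.24 for miR-1-3p between states and, from HA over AA on, 0.13, 1.90 and 2.01 for miR-206-3p. Without the tags departing at base 20, miR-1-3p had 0.44, 0.15, 3.78 and 3.23, and miR-206-3p again 0.13, 1.90 and 2.01. Tags with bases 2 to 17 gave 0.51 (HB over AB), 0.13 (HA over AA) and 3.51 (HA over HB) for miR-1-3p, 0.029, 1.88 and 2.20 for miR-206-3p from HA over AA on, and 3.82 (AA over AB) and 2.41 (HA over HB) for miR-133-3p. Adding tags with 1 substitution gave 0.59, 0.46, 3.51 and 3.07 for miR-1-3p, 0.29 (HA over AA) and 1.76 (HA over HB) for miR-206-3p and -1.29 for miR-133-3p in WAT.
In the order HB, AB, HA and AA, miR-1-3p per miR-206-3p was 8.54, 5.36, 21.1 and 19.6 by the first 18 nt, 8.50, 5.33, 19.8 and 19.5 without the tags departing at base 20, and 8.50, 5.34, 20.98 and 19.6 by bases 2 to 17. With 1 substitution it was 12.2 in HB, 30.0 in HA and 26.8 in AA. miR-1-3p per miR-133-3p was 1576 (HB), 1144 (HA) and 366 (AA) by the first 18 nt, 1567, 1072 and 364 without the tags departing at base 20, and 319, 211, 684 and 203 by bases 2 to 17. With 1 substitution it was 1866 in HA. miR-206-3p per miR-133-3p was 37.6, 39.6, 32.6 and 10.4 by bases 2 to 17, and 20.8 in AA with 1 substitution. The choice by the first 18 nt admits other 3′ ends, and that by bases 2 to 17 also other starts. Beyond this, the cause was not tested.
With a minimum of 100 reads in place of 10, the listed miRNAs past an absolute log2 ratio of 1 fell to 32, 38, 74 and 78 of fewer miRNAs. Of 48 folds between libraries in these ratios, 28 lay within the interval of the reported value. The folds of miR-206-3p per miR-133-3p by the first 18 nt are counted there under both first-18-nt choices.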
